A study of Mus musculus with 4 samples.

Results

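The 8 genes described here code for 6 enzymes of sterol synthesis, Hmgcs1, Fdps, Fdft1, Sqle, Lss and Cyp51, and for 2 regulators of that pathway, Insig1 and Srebf2. They were chosen by gene symbol, not by a measured value, though earlier results of these data were known. Each of the 8 was found among the 22481 symbols listed in both tables. All 8 had a mean of at least 1 scaled CPM (the deposited scaled count per 1000000 of the mean total of its IP and IgG pair) and so were among the 16217 genes tested. The RNA came from mouse brown adipose tissue and was recovered by RNA immunoprecipitation, in a fraction labelled IP and a control immunoglobulin fraction labelled IgG; the labels do not name the protein that the IP antibody bound, and the series title is about Fam172a. Each fraction had 2 libraries, in 2 pairs of 1 IP and 1 IgG library. The titles mark all 4 libraries as WT, and the labels used here give no strain, age or number of animals. The columns of the WT4 pair carry its titles, and the labels give no cold or other treatment for it. The columns of the other pair, called the first pair here, name only the fraction, so that the 2 libraries labelled cold belong to it by elimination.

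Cholesterol is made from acetyl-CoA through mevalonate, farnesyl diphosphate, squalene and lanosterol, in the cytosol and the endoplasmic reticulum. When membrane sterol is low, SCAP escorts SREBP2 to the Golgi, where proteases release its transcription factor domain, which then activates the genes of the pathway. INSIG1 holds the SCAP and SREBP complex back in the endoplasmic reticulum when sterol is high. Brown fat is better known for burning fatty acids than for making sterols.

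The libraries held 6633655 (IP) and 5587295 (IgG) fragments for the first pair, against 1631883 and 360370 for WT4, so that values of the WT4 IgG library carry the largest counting error. In that library 43.0% of all tested genes had 0 fragments. Brown adipocyte markers, Ucp1 and Fabp4 among them, were present in all 4 libraries, and the 9 genes together had a library CPM (fragments per 1000000 fragments of the library itself) of 19314 and 17413 in the first pair and 10800 and 8219 in WT4. Fam172a itself, which is not deleted in any of these libraries by their labels, held 141 (IP) and 135 (IgG) fragments, then 99 and 24 for WT4, so its log2 ratios were -0.16 and 0.15. Bdh1, a ketone body enzyme that the series title names, held 27 and 0, then 31 and 0 fragments. Against a floor of 3 fragments in IgG, its IP was 7.66-fold (first pair) and 2.79-fold (WT4) higher, with IP counts taken as exact. It did not pass edgeR's quasi-likelihood test of IP against IgG (unadjusted p = 0.328).

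No sterol gene passed the test of IP against IgG across both pairs. Of the 8 genes, 0 passed the test (edgeR's quasi-likelihood test with Benjamini-Hochberg adjustment, adjusted p = 1.0 for each), and 0 had an unadjusted p under 0.05, where the values ran from 0.498 for Lss to 0.997 for Fdps. Over all tested genes 0.00617% passed the test, which is 1 gene, and 1.45% had an unadjusted p under 0.05. DESeq2, which called 0.0185% of all genes, and limma, which called 0 (220 at an unadjusted p under 0.05), also called 0 of the 8. The pairs differed widely over all genes (common dispersion 1.47), and a p over the threshold does not show equal recovery. For a single gene, exact swaps of IP and IgG within the 2 pairs cannot give a two-sided p below 0.5.

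Within the first pair, most of the 8 genes lay within 2-fold of equal recovery, as did 9696 of the 16217 tested genes. The log2 ratio of IP over IgG, from scaled CPM after adding 1, lay between -1 and 1 for 6 genes, with Sqle just past 2-fold higher (under 2-fold when 10 was added in place of 1) and Fdps more than 2-fold lower. Of all tested genes, 13.3% were at least 2-fold higher and 26.9% at least 2-fold lower in that pair. In the WT4 pair 3 genes lay between -1 and 1, 2 were at least 2-fold higher (Fdps and Fdft1) and 3 at least 2-fold lower (Lss, Cyp51 and Srebf2), against 51.6% and 19.3% of all tested genes. The WT4 counts depended on the scaling: with TMM factors 1 gene was 2-fold lower (Lss), in FPKM 3 were higher (Fdps, Fdft1 and Lss) and 1 lower (Cyp51), and centred on all tested genes 1 was higher and 6 lower. Fdps counts as 2-fold higher only through the added 1, since its bound is 1.62-fold. Among the 10469 genes of at least 10 scaled CPM, a level that all 8 genes reach, the shares were 11.1% and 23.2% for the first pair, against 37.5% and 24.1% for WT4. The median log2 ratio of the 8 genes was 0.24 for the first pair and -0.44 for WT4, beside -0.03 and 1.17 for all tested genes and -0.13 and 0.31 for genes of at least 10 scaled CPM. No gene was 2-fold the same way in both pairs, beside 7.19% of all tested genes that were higher and 5.25% that were lower in both, or 4.1% and 7.19% of genes of at least 10 scaled CPM.

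**Figure D1:**
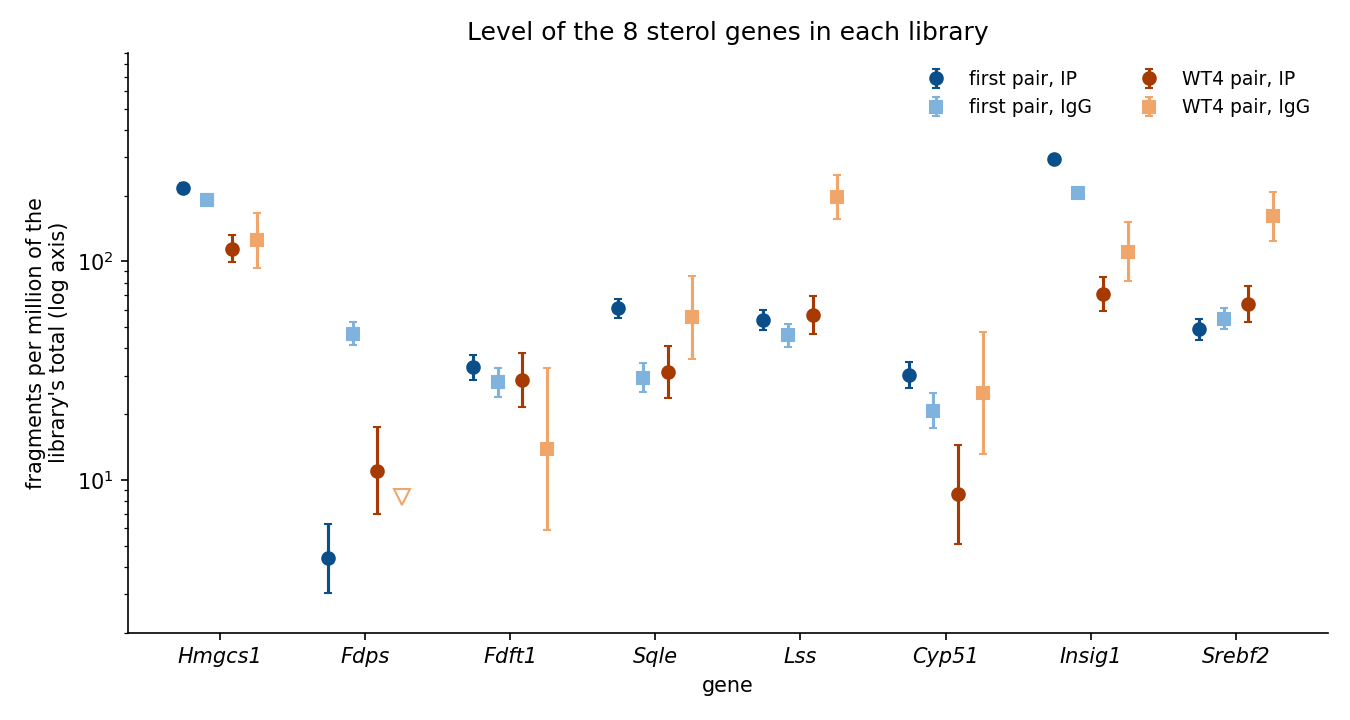
Library CPM (log axis) for the 8 genes, with 1 symbol per library (circles IP, squares IgG, blue first pair, orange WT4 pair) and bars for the 95% Wilson interval, which covers counting error only. The open triangle marks the library CPM of 8.32 that 0 fragments of Fdps in the WT4 IgG library allow. Insig1 and Hmgcs1 were highest in both first-pair libraries, and Lss and Srebf2 in the WT4 IgG library.

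Hmgcs1, the cytosolic HMG-CoA synthase that makes the precursor of mevalonate, had log2 ratios that differed least between the pairs. This did not hold when each pair was centred on all tested genes, where Hmgcs1 differed by 1.24 and Fdft1 by 0.164. Hmgcs1 lies on the plus strand of chromosome 13, from 119690379 to 119708260 (GRCm38, GENCODE vM21). The first-pair libraries held 1445 (IP) and 1071 (IgG) fragments, the WT4 libraries 187 and 45. As library CPM this was 218 and 192, then 115 and 125. Fractions of 1 pair therefore lay near each other, and both libraries of the first pair lay above both of the WT4 pair. The log2 ratios were 0.20 and 0.16, averaging 0.18 ± 0.03 (SD over the 2 pairs), and the WT4 ratio turned to -0.12 when each library was scaled to its own total and to -1.01 when centred on all tested genes. The ratio in the WT4 pair also lay below that pair's median over all tested genes. Its fold of 1.12 there had an exact 95% interval from 0.805 to 1.59 (counting error only). An annotated antisense gene, Gm48342, overlaps it, and 13.6% of its 50-base words occur in 1 other gene.

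Fdps, farnesyl diphosphate synthase, showed the widest spread of the 8 genes. It lies on the minus strand of chromosome 3, from 89093588 to 89101959. The first-pair libraries held 29 (IP) and 261 (IgG) fragments, the WT4 libraries 18 and 0. IP was 10.6-fold lower in the first pair, with an exact 95% interval of IP over IgG from 0.0621 to 0.139. WT4 IP was 1.62-fold higher against a floor of 3 fragments in the IgG library. This bound takes the 18 IP fragments as exact. The log2 ratios after adding 1 were -3.14 and 3.71, averaging 0.29 ± 4.85 (SD over the 2 pairs), where the WT4 value is set by the added 1. The pairs thus went opposite ways, and the WT4 value rests on few fragments. In that IgG library, 0 fragments allow a library CPM of up to 8.32, within the Wilson interval of the IP library (11.0, 6.98 to 17.4).

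Counts of Fdps are uncertain, since near-identical copies of its sequence exist. Of the 50-base words of its longest coding transcript, 86.4% occur in a transcript of another annotated gene, and 51.1% occur in 7 processed pseudogenes. The overlapping gene Gm43738 on the same strand holds 77.3% of the words. None of these other genes has a row in the tables. The pseudogene Gm3571 (chromosome 10, 93778660 to 93779719) matches the coding sequence of Fdps at 99.1% of 1057 aligned bases. The stretch below is shown because it is what an aligner has to tell apart: 60 bases of coding sequence (bases 145 to 204) and the same stretch of the pseudogene, read from GENCODE vM21 transcripts, 5′ to 3′, with the single differing base in capitals.
Fdps: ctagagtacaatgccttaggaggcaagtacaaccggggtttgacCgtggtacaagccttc
Gm3571: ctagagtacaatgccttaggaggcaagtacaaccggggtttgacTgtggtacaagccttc
The difference is C45T, counted from 1 at the 5′ end of the stretch. The labels do not say how the authors placed reads that match several copies, and its part in the Fdps values was not tested.

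**Figure D2:**
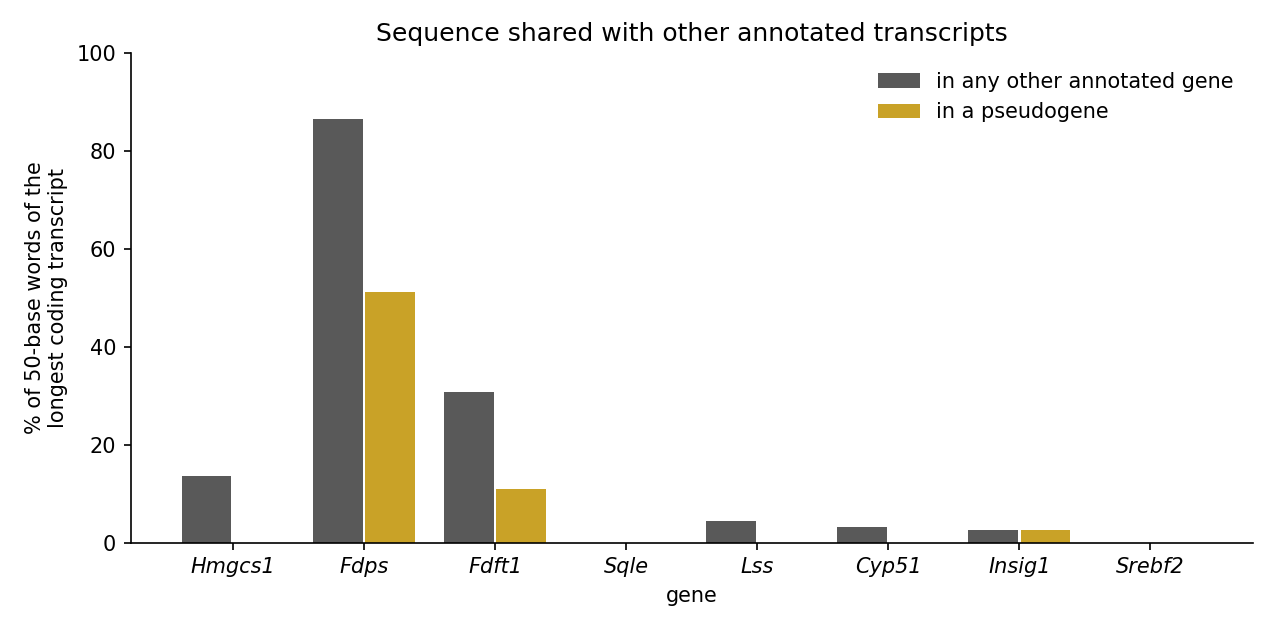
Share (%) of the 50-base words of each gene's longest coding transcript that also occur in any other gene annotated in GENCODE vM21 (grey) or in a pseudogene (yellow), on either strand. Fdps stands at 86.4% and 51.1%, Fdft1 at 30.7% and 10.9%, and Sqle and Srebf2 at 0.

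Fdft1, squalene synthase, makes the first committed intermediate of the sterol branch. It lies on the minus strand of chromosome 14, from 63145150 to 63179578. Counts were 217 (IP) and 156 (IgG) fragments, then 47 and 5 for WT4, or 32.7 and 27.9, then 28.8 and 13.9 library CPM. IP and the first-pair IgG library lay close together, and the WT4 IgG library was lowest. The log2 ratios were 0.24 and 1.28, averaging 0.76 ± 0.73 (SD over the 2 pairs). The WT4 fold of 2.53 had an exact 95% interval from 1.01 to 8.16, on 5 IgG fragments. The tables give Fdft1 a locus shared with Ctsb, a lysosomal protease on the opposite strand, whose transcripts hold 19.9% of its 50-base words, and the pseudogene Gm6781 (also on chromosome 14) matches its coding sequence at 98.1% of 1241 aligned bases. A stretch of that pair, chosen by the same rule as for Fdps (bases 226 to 285 of the coding sequence), shows the likeness.
Fdft1: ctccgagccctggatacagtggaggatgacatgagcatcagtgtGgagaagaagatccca
Gm6781: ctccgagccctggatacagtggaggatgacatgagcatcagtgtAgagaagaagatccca
The difference is G45A, counted in the same way. Counts of Fdft1 are therefore uncertain.

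Sqle, squalene epoxidase, is a rate-limiting enzyme of the sterol branch and lies on the plus strand of chromosome 15, from 59315077 to 59331192. It alone of the 8 passed 2-fold higher in the first pair, with 404 (IP) and 164 (IgG) fragments, or 60.9 and 29.4 library CPM. The WT4 libraries held 51 and 20, or 31.3 and 55.5 library CPM, so that IP was the lower library there. The first-pair fold was 2.10 (exact 95% interval 1.74 to 2.53) and the WT4 fold 0.687 (0.403 to 1.22). The log2 ratios of 1.04 and -0.53 averaged 0.26 ± 1.11 (SD over the 2 pairs). No 50-base word of Sqle is shared with another annotated gene, and no annotated gene overlaps it.

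Lss, lanosterol synthase, closes the sterol ring system. It lies on the plus strand of chromosome 10, from 76531588 to 76557138. The first-pair libraries held 357 (IP) and 257 (IgG) fragments, the WT4 libraries 93 and 71. As library CPM this was 53.8, 46.0, 57.0 and 197, so that 3 libraries were alike and the WT4 IgG library stood apart. The log2 ratios were 0.24 and -1.49, averaging -0.63 ± 1.22 (SD over the 2 pairs). The WT4 fold of 0.353 had an exact 95% interval from 0.256 to 0.488, but the FPKM of this pair went the other way, as given with the FPKM values. An annotated antisense gene overlaps Lss.

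Cyp51, the lanosterol demethylase, is a cytochrome P450 that acts on the product of Lss. It lies on the minus strand of chromosome 5, from 4081145 to 4104746. Its counts were 200 (IP) and 116 (IgG) fragments, then 14 and 9 for WT4, or 30.1 and 20.8, then 8.58 and 25.0 library CPM. By counts IP was higher in the first pair and lower in the WT4 pair, where both counts were small; in FPKM it was lower in both. The log2 ratios were 0.53 and -1.17, averaging -0.32 ± 1.20 (SD over the 2 pairs). The WT4 fold of 0.419 had an exact 95% interval from 0.169 to 1.1, which spans equal recovery. Cyp51 overlaps Akap9 on the opposite strand; the libraries were directional, but whether counting used strand is not stated.

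Insig1 was the most abundant of the 8 genes in the first pair. It lies on the plus strand of chromosome 5, from 28071363 to 28078662. The first-pair libraries held 1949 (IP) and 1154 (IgG) fragments, the WT4 libraries 116 and 40, or 294 and 207, then 71.1 and 111 library CPM. Both first-pair libraries thus lay above both WT4 libraries, and IP was the higher fraction in the first pair and the lower one in the WT4 pair. The log2 ratios were 0.52 and -0.35, averaging 0.09 ± 0.62 (SD over the 2 pairs). The first-pair fold of 1.44 had an exact 95% interval from 1.34 to 1.55, and the WT4 fold of 0.782 one from 0.541 to 1.15. Its paralog Insig2, which does the same work in the membrane, held 173 and 209, then 32 and 50 fragments, for log2 ratios of -0.49 and -2.48. In FPKM the ratio of Insig2 turned to 0.18 in the first pair and fell short of 2-fold, at -0.75, in the WT4 pair.

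Srebf2, the gene of SREBP2, lies on the plus strand of chromosome 15, from 82147181 to 82205379, and hosts the microRNA gene Mir33 in an intron. The first-pair libraries held 324 (IP) and 306 (IgG) fragments, the WT4 libraries 104 and 58. As library CPM this was 48.8 and 54.8, then 63.7 and 161, so that the WT4 IgG library was again the highest. The log2 ratios were -0.15 and -1.05, averaging -0.60 ± 0.64 (SD over the 2 pairs). By scaled counts Srebf2 alone of the 8 was lower in IP in both pairs. In FPKM Cyp51 was lower in both as well (log2 ratios -0.59 and -1.79). The first-pair interval of Srebf2, 0.768 to 1.06, spans equal recovery. Its relative Srebf1, which drives fatty acid synthesis genes and shares a listed locus, had 1914 and 1383, then 191 and 80 fragments, for log2 ratios of 0.24 and -0.63.

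The direction often differed between the pairs. In 5 of them (Fdps, Sqle, Lss, Cyp51 and Insig1) the ratio went one way in the first pair and the other way in the WT4 pair, against 44.9% of all tested genes and 47.6% of genes of at least 10 scaled CPM. The count was 4 in FPKM and 6 when ratios were centred or each library was scaled to its own total. In the first pair the counting interval of IP over IgG lay above 1 for 5 genes and below 1 for 1, beside 33.3% and 42.8% of tested genes with fragments in both libraries. Of the 7 genes with fragments in both WT4 libraries, it lay above 1 for 1 and below 1 for 2, beside 24.9% and 36.5%. Fragments carry no molecular identifiers, so these intervals are too narrow to the extent that fragments are copies of 1 molecule. Summed over the 8 genes, the libraries had a library CPM of 742 (IP) and 624 (IgG) for the first pair, against 386 and 688 for WT4, so that the WT4 IP library was the lowest. Insig1 made up 39.6% and 33.1% of the summed fragments of the first-pair IP and IgG libraries, but 18.4% and 16.1% of those of the WT4 libraries.

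**Figure D3:**
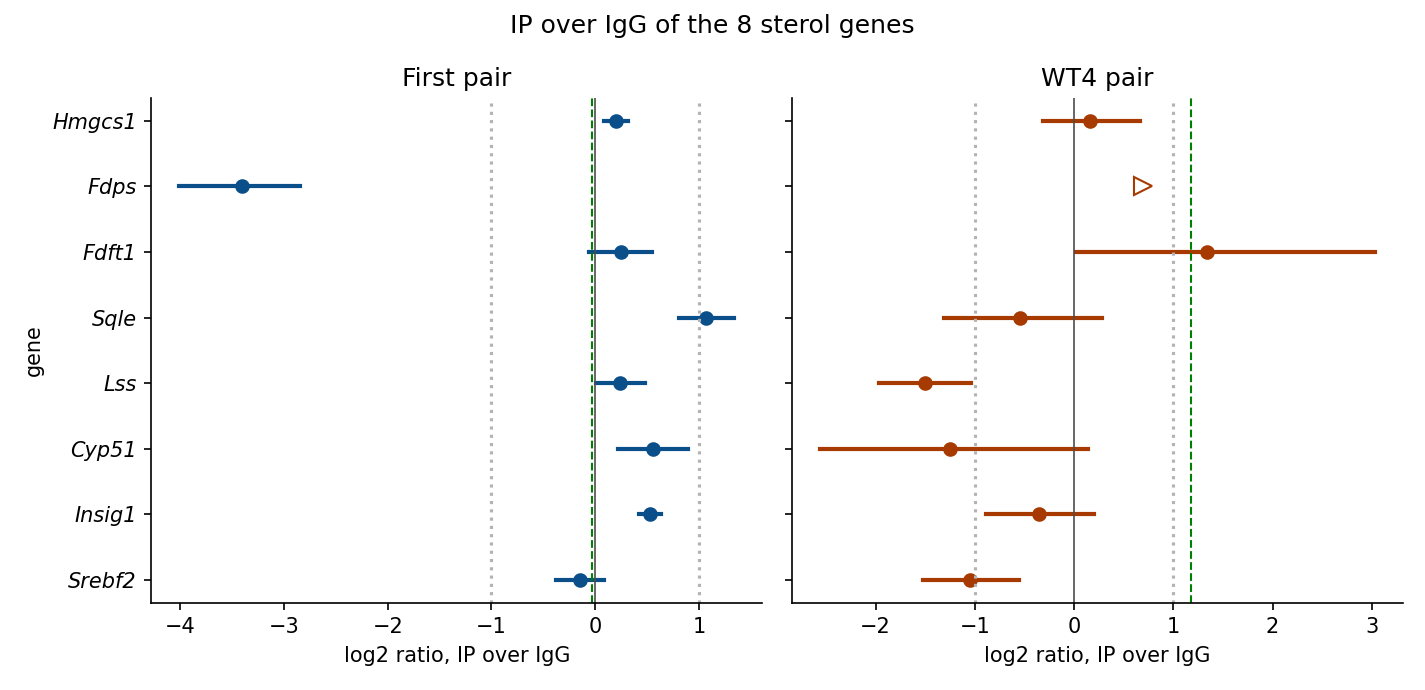
Log2 ratio of IP over IgG from fragments scaled by the authors' factors, with no pseudocount, for the 8 genes in each pair, with exact 95% intervals (lines) that cover counting error only. Dotted lines mark 2-fold and the dashed green line the median of all tested genes (-0.03 and 1.17, after adding 1). The open triangle marks the bound of 1.62-fold for Fdps, which takes its IP count as exact. Fdps stands apart in the first pair, and Lss, Cyp51 and Srebf2 lie beyond 2-fold lower in the WT4 pair.

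The deposited FPKM gave other directions for 2 of the 8 genes. In the WT4 pair Lss had 2.83-fold fewer scaled counts in IP but 2.32-fold more FPKM, at 47.2 in IP and 20.4 in IgG. In the first pair its scaled counts were 1.18-fold higher in IP and its FPKM 1.17-fold lower. Cyp51 had 1.47-fold more scaled counts in the first IP library than in IgG, and 1.59-fold less FPKM (5.79 and 9.23). Both WT4 measures of Cyp51 were lower in IP, by 2.38-fold in counts and 4.06-fold in FPKM. For a gene read as 1 fixed length, the scaled counts per FPKM are the same in both libraries of a table. For Hmgcs1, Fdft1, Insig1 and Srebf2 they were nearly so, with WT4 ratios of IP to IgG from 1.01 to 1.02, and for Fdps they were 9.09 in IP and 9.08 in IgG of the first pair. For Cyp51 they were 32.0 in IP and 13.7 in IgG, for Lss 24.2 and 17.4, and for Sqle 19.7 and 23.2. Those of Lss in WT4 were 1.44 and 9.46. GENCODE vM21 lists 8 transcripts of Lss, from 314 to 6992 bases, and 4 of Cyp51, from 528 to 3931 bases. Over all genes with FPKM above 0.1 in both libraries, scaled counts per FPKM differed by over 10% for 46.2% in the first pair and 48.8% for WT4, and the 2 measures put IP over IgG on opposite sides of 1 for 11.9% and 10.9%.

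**Figure D4:**
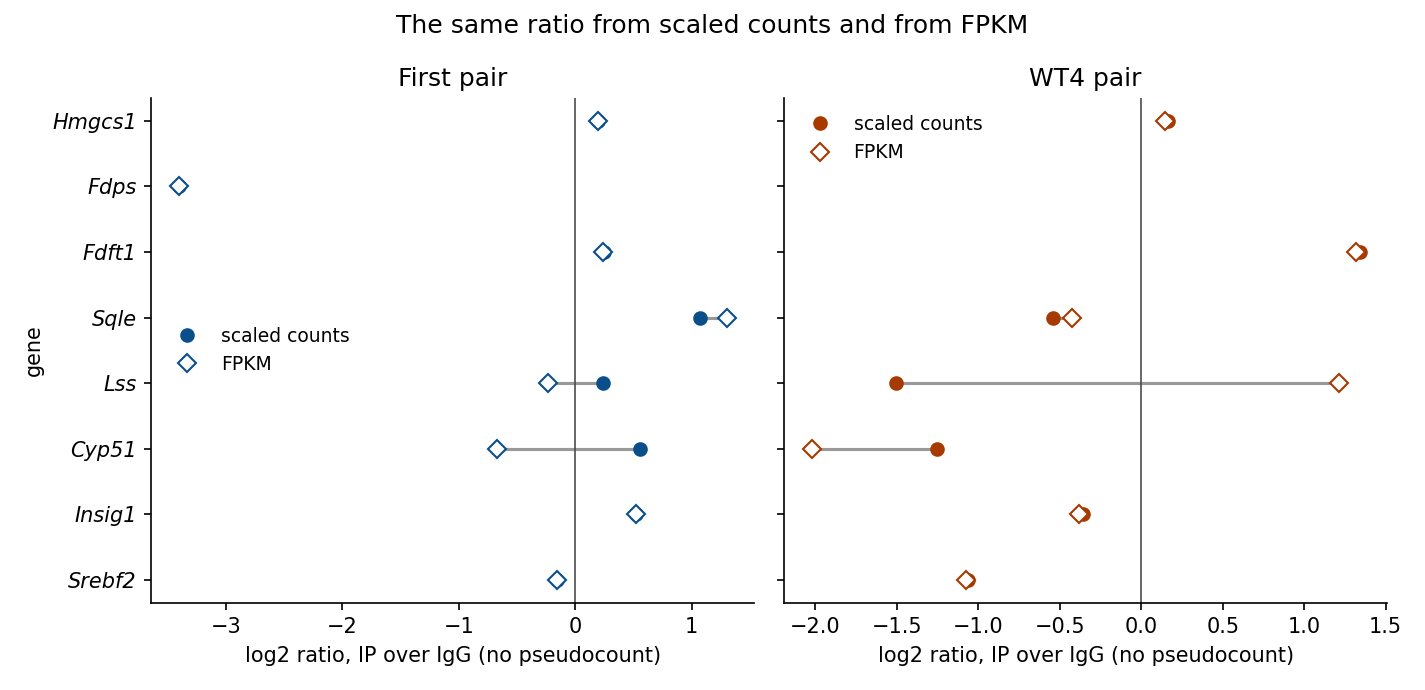
Log2 ratio of IP over IgG in each pair from scaled counts (filled circles) and from FPKM (open diamonds), with no pseudocount, joined by a line for each gene. Lss crosses 0 in both pairs and Cyp51 in the first pair. Fdps has no WT4 point because it was listed at 0 in IgG.

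Per length, Insig1, Hmgcs1 and Lss had the highest means, but the order differed between the pairs: Lss ranked 4 in both first-pair libraries and 1 in both WT4 libraries. Mean FPKM over the 4 libraries was 44.6 ± 32.6 for Insig1, 33.9 ± 16.7 for Hmgcs1 and 24.3 ± 15.5 for Lss (SD, n = 4 libraries, from tables normalized separately). Fdps followed at 10.01 ± 14.4, Srebf2 at 9.49 ± 3.86, Sqle at 9.21 ± 6.63, Cyp51 at 8.90 ± 5.51 and Fdft1 at 6.12 ± 2.76. Each gene's range over the 4 libraries overlapped that of its neighbours in this order. Fdps had FPKM of 2.95, 31.2, 5.86 and 0, the widest range relative to its mean.

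The levels also differed between the pairs, which were normalized separately and are compared here without a test. In library CPM of the IP libraries, Insig1 was 4.13-fold higher in the first pair than in the WT4 pair, Cyp51 3.51-fold, Sqle 1.95-fold and Hmgcs1 1.901-fold. In the IgG libraries the same ratios were 1.86 for Insig1, 0.831 for Cyp51, 0.529 for Sqle and 1.54 for Hmgcs1. Those of Fdft1 were 1.14 in IP and 2.01 in IgG. Insig1, Hmgcs1 and Fdft1 were thus higher in the first pair in both fractions, and Cyp51 and Sqle in IP but not in IgG. For Fdft1 the Wilson intervals of the pairs overlapped in both fractions, with 5 fragments in the WT4 IgG library. The library CPM of Fdps was 4.37 (first pair) and 11.0 (WT4) in IP, and 46.7 and 0 in IgG. Lss was 4.28-fold and Srebf2 2.94-fold higher in the WT4 IgG library than in the first one, and 1.06-fold and 1.30-fold in IP. Cold labelling, table and library depth all differ between the pairs and cannot be told apart. In tissue RNA, fewer cells of a type and less RNA per cell cannot be told apart either.

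Markers of other cell types also differed among the libraries. The 6 endothelial markers summed to a library CPM of 896 in the first IP library and to 2123 to 2443 in the other 3. The 6 skeletal muscle markers summed to 5478 and 3577 for the first pair and 1359 and 1718 for WT4. By library CPM, Lss and Srebf2 were highest in the WT4 IgG library. The FPKM of Lss was instead highest in the WT4 IP library (47.2, against 20.4 in WT4 IgG). The WT4 IgG library was also highest for the 6 macrophage markers (244 library CPM, against 38.1 to 60.7), the 6 hepatocyte markers (63.8, against 6.74 to 29.5) and the 5 adrenal cortex markers (150, against 6.62 to 32.5). Of these, 2, 4 and 2 markers were at 0 in that library, and Ttr alone gave 61.0 of the hepatocyte sum. Alb of the liver, highest in the first pair (22.8 and 11.1), was at 0 there, as were Cyp11a1 and Cyp11b1 of the adrenal cortex. The part of these cells in the sterol values was not tested.

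The other genes of the pathway gave no calls either. Of 32 genes from lists of synthesis enzymes, sterol sensors and storage, transport and efflux genes, 0 passed edgeR's test (adjusted p = 1.0 for each), 0 had an unadjusted p under 0.05, and DESeq2 and limma called 0. Some genes of the pathway are not analysed here. The 15 other synthesis enzymes had median log2 ratios of 0.03 (first pair) and 2.51 (WT4), where 9 of them had 0 fragments in IgG. With those genes set at their bound the WT4 median was 0.11. At least 2-fold higher were 1 of the 15 in the first pair and 11 in WT4, and at least 2-fold lower 4 and 2, beside 13.3% and 51.6%, and 26.9% and 19.3%, of all tested genes. Ggps1, which makes geranylgeranyl diphosphate, was at least 2-fold higher in both pairs at 1.24 and 3.26 after adding 1. With 0 WT4 IgG fragments set at the floor of 3, its 13 IP fragments, taken as exact, gave only 1.17-fold. Tm7sf2, a sterol reductase, was at least 2-fold lower in both at -1.88 and -1.26, with 8 (IP) and 40 (IgG) fragments, then 24 and 16. The tables join both to other genes in 1 locus, so their counts are uncertain. Highest by scaled CPM averaged over the 4 libraries were Sc5d, a sterol desaturase, at 0.67 and 0.63, and Msmo1, the methylsterol oxidase, at 0.15 and -0.88, though Acat2 and Pmvk lay above Msmo1 in both first-pair libraries.

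Mvk, mevalonate kinase, and Lbr, a sterol reductase of the nuclear envelope, were chosen after their values were seen because the pairs differed widely. Mvk held 27 (IP) and 22 (IgG) fragments, then 0 and 32 for WT4, where IP was 39.6-fold lower at the floor of 3 fragments. In FPKM the first pair of Mvk was not as even, at 12.0 in IP and 2.42 in IgG. Lbr held 7 and 177, then 35 and 0, so that IP was first 29.7-fold lower and then, for WT4, 3.14-fold higher at that floor.

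The 7 sensing and SREBP processing genes ranged from -3.23 to 0.41 in the first pair. In WT4 the lowest was Insig2 at -2.48. Scap, the escort of SREBPs, shares a listed locus and had 40 WT4 IP fragments against 0 in IgG, 3.59-fold higher at the floor of 3 fragments. In FPKM the log2 ratios of Scap were 1.67 (first pair) and 3.93 (WT4, set by the added 1), while scaled CPM gave 0.41 in the first pair. The group had medians of -0.49 and 0.90 by scaled CPM. On that measure 0 and 3 of the 7 were at least 2-fold higher, and 2 and 1 at least 2-fold lower. These counts are read against the same shares of all tested genes. Highest by scaled CPM averaged over the 4 libraries were Srebf1, given above, and Mbtps1, the site-1 protease that cleaves SREBPs, at 0.04 and 0.90. The 10 storage, transport and efflux genes all lay within 2-fold in the first pair, and 7 of the 10 did so in WT4, where the other 3 were higher. Of the 16217 tested genes, 9696 lay within 2-fold in the first pair and 4723 in WT4. Among the 10469 genes of at least 10 scaled CPM these were 6888 and 4020. The medians of the 10 genes were 0.21 and 0.25. Abca1, the cholesterol efflux pump, held 2152 and 1956, then 451 and 46 fragments, for log2 ratios of -0.09 and 1.39. Npc1, which exports cholesterol from lysosomes and shares a listed locus, stood at 0.01 and -0.60.

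**Figure D5:**
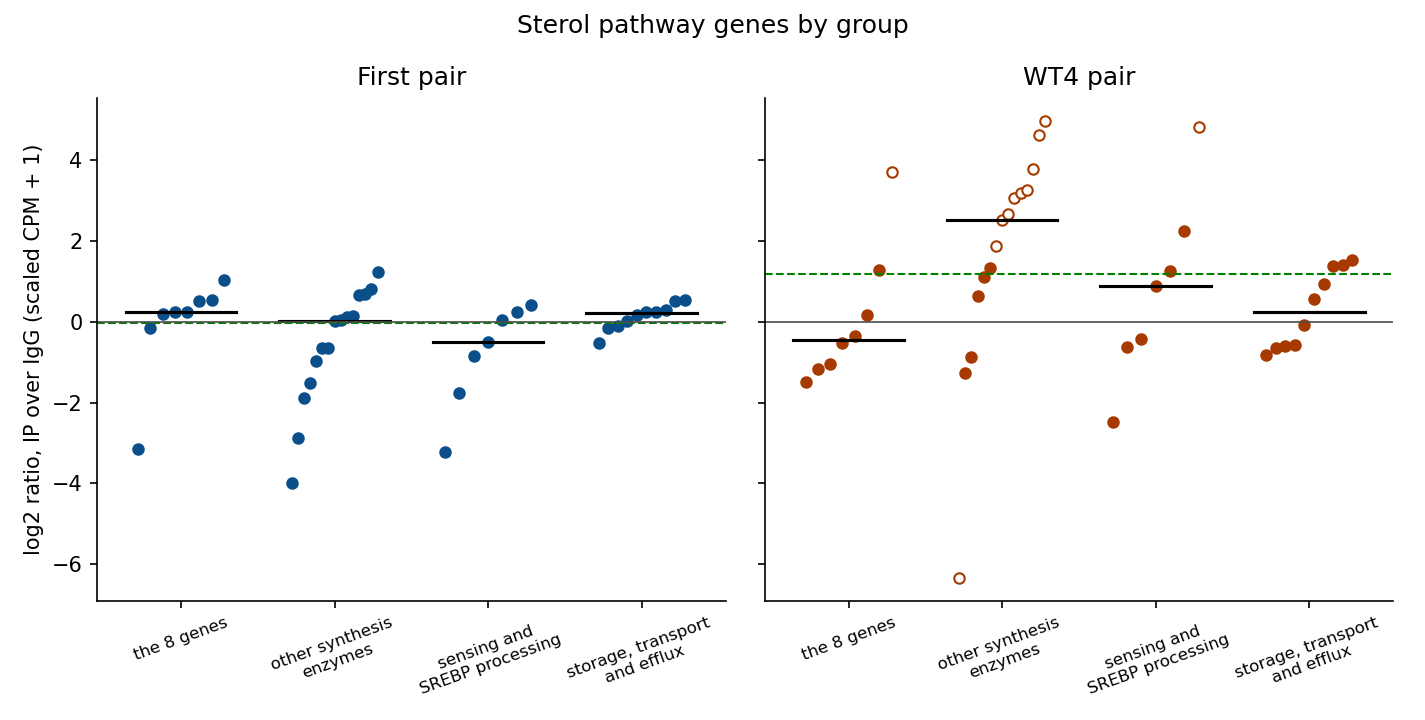
Log2 ratio of IP over IgG, from scaled CPM after adding 1, for the 8 genes and 3 further groups of sterol pathway genes in each pair. Each point is 1 gene, open points have 0 fragments in 1 library of the pair, black bars are group medians and the dashed green line is the median of all tested genes (-0.03 and 1.17). The high WT4 values of other synthesis enzymes are mostly open points.

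The mean profile of the 8 genes over the 4 libraries was nearly flat. Of 7367 genes with a mean of at least 10 scaled CPM and a locus of their own, those nearest to it by Euclidean distance of centred log2 values were Adam9 (0.04), Tns1 (0.09), Hif1a (0.11), Git1 (0.11) and Clock (0.11), beside a median distance of 2.41. The 8 genes themselves lay between 0.37 (Hmgcs1) and 3.77 (Fdps) from their own mean, so that this profile describes Hmgcs1 best and stands for none of the others closely.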

How the data were processed

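RNA immunoprecipitation sequencing was done on 4 libraries. Per the submitters' processing notes, the tools were HISAT2, Cufflinks, Cuffdiff and cutadapt 1.9.3 and the build mm10, with no role or order given; no annotation release is stated there. The authors deposited 1 table per pair with estimated counts, scaled to the pair, and FPKM. All sample columns were used. The estimated counts were whole multiples (within 0.05) of 1 step per library for 94.5% to 97.8% of values above 0. Dividing by the step and rounding gave fragments.

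Scaled CPM expresses each deposited scaled count per 1000000 of the mean total of both libraries of its pair, after summing rows of 1 symbol. Ratios were taken as log2 after adding 1, which understates the change of low genes that have fragments in both libraries. For genes at 0 in the WT4 IgG library it can overstate the change. The floor of 3 fragments there is 7.50 scaled CPM, well above the added 1. Genes with a mean of at least 1 scaled CPM were tested with edgeR 4.0.16 (quasi-likelihood, pair as a block, library sizes set to the authors' own scaling) with Benjamini-Hochberg adjustment at 0.05; DESeq2 1.42.0, limma 3.58.1 and FPKM were alternatives. The pairing comes from the titles and the tables, and deviations of the IP and IgG library of a pair from their group means had r = 0.262 across genes. edgeR estimated infinite prior degrees of freedom, which pools the spread over genes. The labels do not say whether separate animals were used, so p-values measure only spread between these samples. A single library per fraction in a pair allows no test within it. Intervals are Wilson for shares and exact (Clopper-Pearson) for ratios, both 95%, and cover counting error only, as does the floor of 3 fragments in a library at 0. Folds at that floor take the count of the other library as exact.

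Gene positions and transcripts are from GENCODE vM21 (GRCm38), matched by Ensembl identifier, 1-based. Shared sequence was searched as 50-base words on both strands, and the printed stretches are the first 60 aligned bases with 1 to 3 differences, none within 15 bases of an end. Named were all 8 genes, the paralogs Insig2 and Srebf1, the 2 most abundant genes of each pathway list, those 2-fold in 1 direction in both pairs, the 5 nearest in profile, Fam172a and Bdh1; Mvk, Lbr, Scap, Acat2 and Pmvk were added after their values were seen, and a further gene that this rule named is not reported here. Members and lists were chosen with earlier results of these data known. Procedures were tested on simulated data, but no result of those runs is given here. How the tests perform at the common dispersion of these libraries (1.47) is therefore not shown.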

Additional observations from a re-analysis of the deposited data

Results flagged for a closer look

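In 5 genes the ratio of IP over IgG had opposite signs in the first pair and the WT4 pair; with 1 ratio per pair the difference was not tested. The log2 ratio of the first pair minus that of the WT4 pair was -6.85 for Fdps, 1.57 for Sqle, 1.72 for Lss, 1.70 for Cyp51 and 0.87 for Insig1. The value of Fdps is set by the added 1, since WT4 IgG had 0 fragments. It was -10.3 with 0.1 and -3.12 with 10 added. With no pseudocount and a floor of 3 fragments it was -4.10, where the other counts are taken as exact. In FPKM 4 genes had opposite signs, Cyp51 no longer among them. Of all tested genes 44.9% had opposite signs.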

How the results depend on the processing

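The count of called genes was 0 among the 8 genes and among the 32 other pathway genes in every fit run: with TMM factors, with DESeq2, with limma, with no filter or a minimum of 10 scaled CPM, without the replicate block and without each library in turn. Over all genes edgeR called 1, DESeq2 3 and limma 0, the fit without the pair as a block called 0, and leaving out 1 library gave 0 to 7: 0 without either first-pair library, 5 without the WT4 IP library and 7 without the WT4 IgG library. Those fits have no block, and the lone library of a fraction is assumed to vary like the others. At an unadjusted p under 0.05 stood 235 genes with edgeR, 147 without the block, 14 without the first-pair IP library and 1409 without the first-pair IgG library. The block changed no call among the sterol genes.

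With a pseudocount of 10, the first pair had 0 genes 2-fold higher, and WT4 had 1 higher and 1 lower. In FPKM 3 genes were 2-fold higher in the WT4 pair, Lss having joined Fdps and Fdft1, and 1, Cyp51, was lower; with TMM factors 1 was lower, Lss. Genes with opposite signs in the pairs numbered 4 to 6 over these settings. Centring shifted the WT4 ratios by 1.17, leaving 1 gene 2-fold higher and 6 lower. That median includes the 43.0% of tested genes at 0 fragments in WT4 IgG. Among genes of at least 10 scaled CPM, a level that all 8 genes reach, the median was 0.31. Of 96 single ratios under 6 settings, 5 changed sign: Lss in both pairs and Cyp51 in the first pair in FPKM, and Hmgcs1 in the WT4 pair when centred (-1.01) or scaled to each library's own total (-0.12). Of 56 mean log2 ratios, 53 moved by less than the SD between pairs, and the 3 that moved more were those of Hmgcs1, whose SD was 0.03. That SD reached 4.85 for Fdps, so a move below it need not be small. The mean of Lss, with an SD of 1.22, changed from -0.63 to 0.48 in FPKM and is among the 53. Depth limits the WT4 pair most, with 0 to 71 IgG fragments per gene.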
